A study of Mus musculus with 16 samples.

Results

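The genes described here are the nuclear-encoded subunits of respiratory complexes II, III and IV and of ATP synthase (complex V), measured by RNA sequencing of mouse subcutaneous white fat. They were chosen by symbol alone: Sdha to Sdhd, Cyc1, Ndufa4 and the symbols that start with Uqcr, Cox4 to Cox8 or Atp5. Of 56 matching symbols, 6 marked as pseudogenes were left out, Cox7a1 and Cox8b were left out by name, and Cox7b2 and Cox8c were left out because fewer than 3 of the 16 libraries held 10 or more reads of them. This left 46 of the 40322 symbols in the table, with 4 in complex II, 9 in complex III, 16 in complex IV and 17 in complex V. All 46 passed the filter on low counts, and the rule itself uses no measured difference. Of the 46, 45 are annotated as protein coding. Cox6c2 is annotated as a processed pseudogene, so its reads cannot be told apart with certainty from those of Cox6c, and Atp5s, coupling factor B, is not a core subunit of the enzyme. The members lie on 19 chromosomes, with Cox7b on the X. Exons of 12 members overlap a gene on the other strand (Atp5a1, Atp5d, Atp5f1, Atp5j, Atp5l, Atp5o, Cox4i1, Cox5a, Cox6a2, Cox6c, Uqcrb and Uqcrc2), and since no strand setting is given, reads of these pairs cannot be told apart.

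The study compared mice that lack Nampt in adipocytes (ANKO: floxed Nampt with a Cre transgene under the adiponectin promoter) with flox/flox controls at 2 ages. The groups were 3 young control and 3 young ANKO libraries from mice of 2 months, and 5 old control and 5 old ANKO libraries from mice of 22 to 27 months. All groups carried floxed Nampt on a C57BL/6J background and ate regular chow, and female mice are named in the title of the series. The transgene acts in adipocytes, so the other cells of the depot keep Nampt by design. No label ties a library to an animal of its own, and the p-values therefore reflect only how these samples spread. Library totals lay between 19277403 and 30779298 reads. Nampt, which encodes the rate-limiting enzyme of NAD salvage from nicotinamide, measured 86.3, 95.4 and 89.0 CPM (read counts scaled to library size) in young controls and 49.8, 51.7 and 48.7 CPM in young ANKO libraries (log2 fold change -0.85 ± 0.17 SE, adjusted p = 0.0429). Without any 1 of the 6 young libraries Nampt did not pass (adjusted p between 0.0927 and 0.258). In old fat Nampt spanned 47.2 to 78.6 CPM in the 5 controls, overlapping the ANKO libraries at 45.0 to 54.1 CPM (-0.35 ± 0.13, adjusted p = 0.0945), and it was called lower without old control 3 (adjusted p = 0.0188) or old control 4 (adjusted p = 0.0443). Which exons were deleted is not stated in the labels, and reads from other cells or from outside those exons are counted.

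The respiratory chain passes electrons from NADH and succinate to oxygen and pumps protons across the inner mitochondrial membrane. Complex II oxidises succinate and is also an enzyme of the citric acid cycle, complex III passes electrons to cytochrome c, complex IV reduces oxygen, and complex V uses the proton gradient to make ATP. Complexes III, IV and V combine core subunits encoded in mitochondrial DNA with nuclear-encoded subunits, while all subunits of complex II are nuclear. In white adipocytes this machinery supplies the ATP and the carbon intermediates used for lipid storage and hormone secretion.

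Subunits of all 4 complexes were lower in ANKO fat of old mice and none was called different in ANKO fat of young mice. In old ANKO against old control, 35 of the 46 members fell and none rose at an adjusted p below 0.05 in edgeR's quasi-likelihood test, where 8.04% of all 21206 genes tested were lower and 2.99% higher. All 4 members of complex II and all 9 of complex III fell, as did 10 of 16 in complex IV and 12 of 17 in complex V. The median log2 fold change over the 46 members was -0.77, beside 0.01 over all genes, and single members ranged from -1.20 (Cox8a) to 0.35 (Cox4i2). In young ANKO against young control the same test called 0 members, where 0.316% of all genes were called. At that share 0 calls among 46 members do not set them apart from all genes. An unadjusted p below 0.05 was found for 0 members and for 1527 of all genes. DESeq2 called 0 members there, while it called 188 of all genes lower and 146 higher. The median there was -0.11, with a range from -0.53 (Uqcr11) to 0.28 (Cox5a). In these bulk samples fewer cells of a type and less RNA per cell cannot be told apart.

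**Figure D1:**
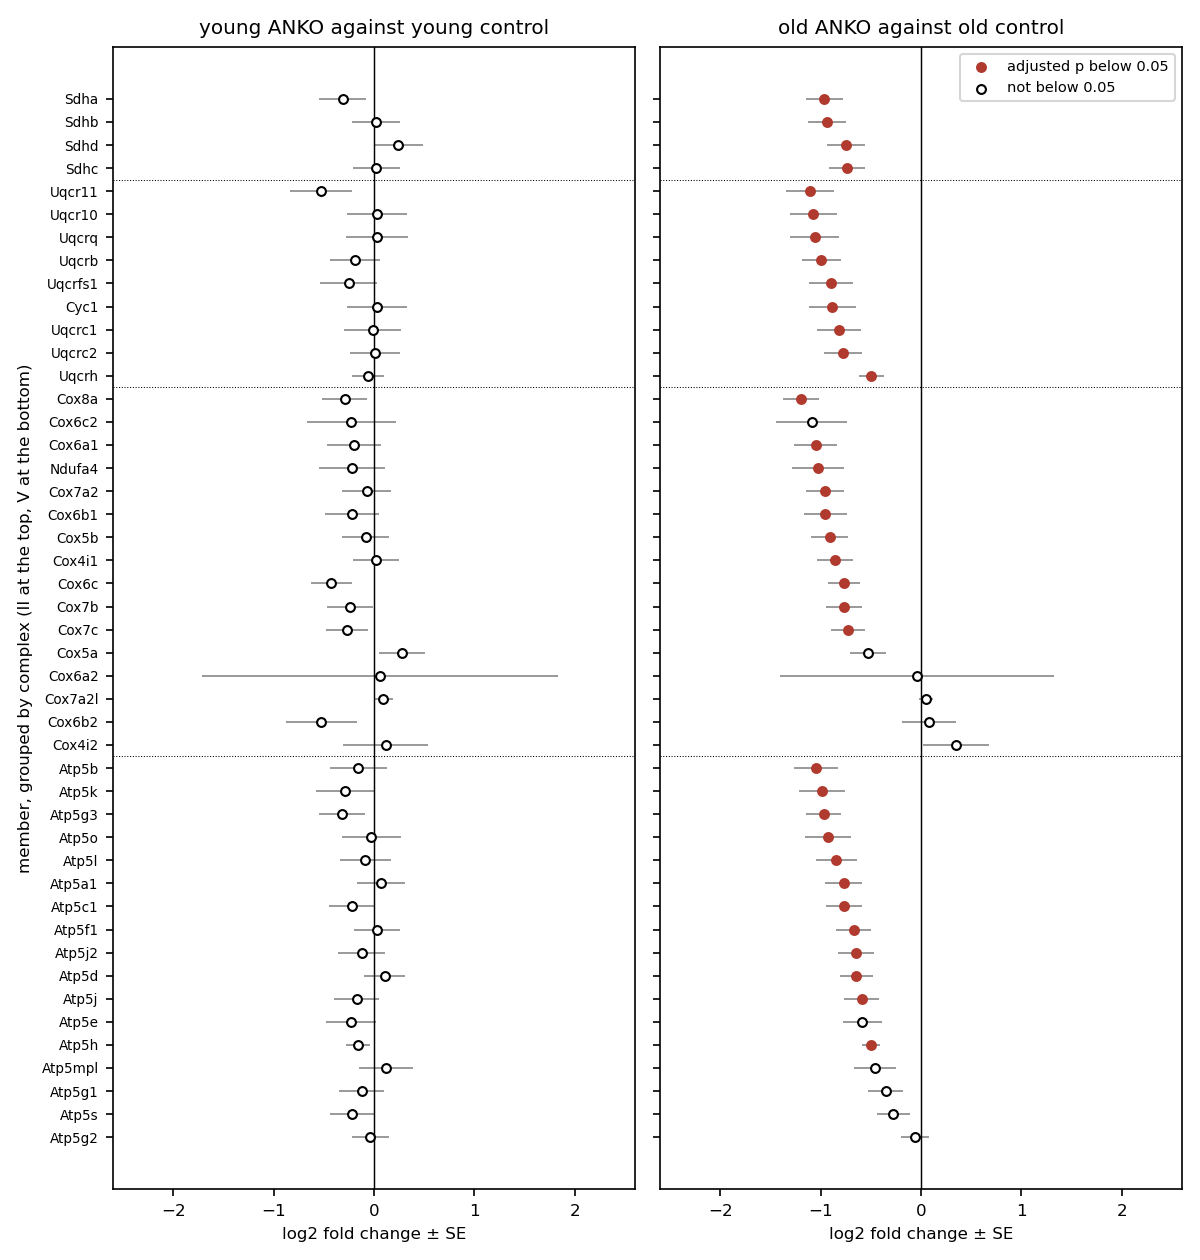
Log2 fold change of each of the 46 members (points, with bars of 1 SE) in young ANKO against young control (left) and old ANKO against old control (right), grouped by complex. In the right panel 35 filled points (adjusted p below 0.05) lie below 0, and in the left panel none is filled.

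Most members were high or low in the same libraries. Each library was summarised by the median, over the 46 members, of log2(CPM + 0.5) minus that gene's mean over the 16 libraries. The young controls stood at 0.26, 0.24 and 0.67 and the young ANKO libraries at 0.16, 0.53 and 0.25, so these groups overlapped. The old controls spread from -0.44 to 0.64, with libraries 1, 2 and 5 at 0.23, 0.64 and 0.48 and libraries 3 and 4 at -0.44 and -0.11. The old ANKO libraries stood at -0.75, -0.38, -0.75, -0.62 and -0.42. Old control 3 therefore lay inside the old ANKO range, and the other 4 old controls lay above it. The SD was 0.44 among old controls and 0.18 among old ANKO libraries. In each of the 6 young libraries between 40 and 45 members were above their own mean, against between 1 and 5 members in the old ANKO libraries and between 2 and 43 in the old controls.

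**Figure D2:**
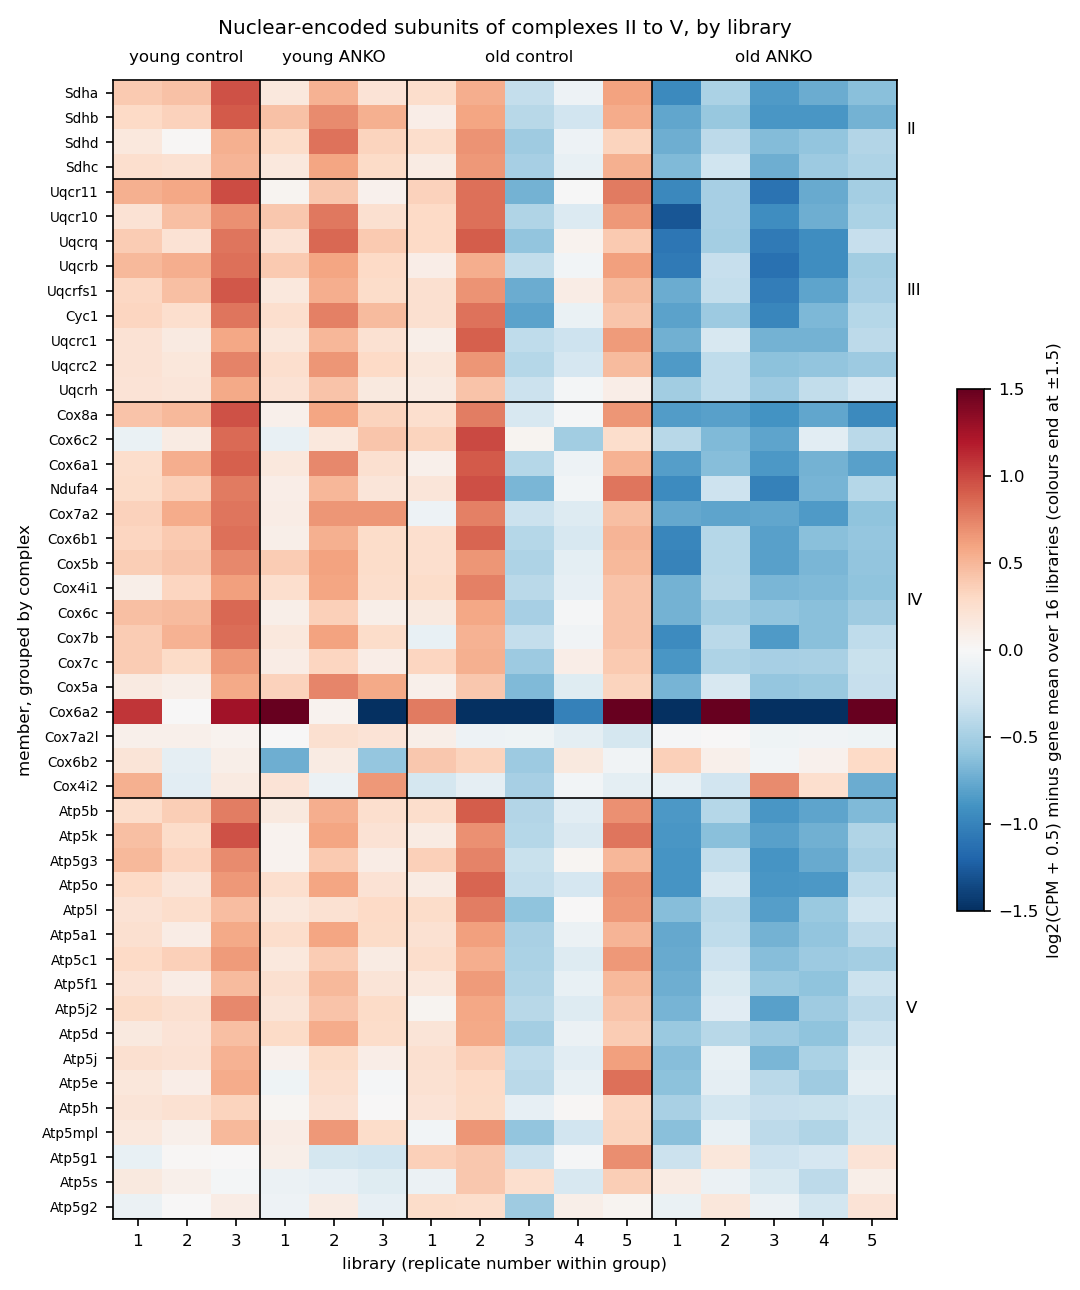
Level of each of the 46 members (rows, grouped by complex) in each of the 16 libraries (columns, by group), as log2(CPM + 0.5) minus the gene's mean. Most rows are red in the 6 young libraries and in old controls 1, 2 and 5, and blue in the 5 old ANKO libraries and old control 3, while Cox6a2, Cox7a2l, Cox4i2, Cox6b2, Atp5g1, Atp5g2 and Atp5s follow other patterns.

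Succinate dehydrogenase (complex II) is built from a flavoprotein (Sdha), an iron-sulfur protein (Sdhb) and a pair of membrane anchors that hold its haem and quinone site (Sdhc and Sdhd). Sdha measured 350, 359 and 513 CPM in young controls, 297, 382 and 305 in young ANKO, 318, 389, 206, 251 and 404 in old controls, against 137, 191, 147, 158 and 171 in old ANKO libraries. Every old ANKO library was below every old control for Sdha (-0.96 ± 0.18, SE, n = 5 per group, adjusted p = 0.00358). Sdhb measured 83.7, 118, 58.4, 64.0 and 115 CPM in old controls against 45.3, 52.2, 42.4, 42.2 and 47.5 in old ANKO libraries, again without overlap (-0.94 ± 0.19, adjusted p = 0.00545). The membrane anchors fell by 0.74 ± 0.18 (Sdhc, adjusted p = 0.0175) and 0.75 ± 0.19 (Sdhd, adjusted p = 0.0191) on the log2 scale, and for both the groups overlapped. Those calls rested on single libraries: Sdhc was not called without old control 2 or 5 (adjusted p up to 0.0608), nor Sdhd without old control 2, old control 5 or old ANKO 1 (up to 0.0666). In young ANKO fat the 4 members lay between -0.31 and 0.24.

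Complex III pairs catalytic subunits, cytochrome c1 (Cyc1) and the Rieske iron-sulfur protein (Uqcrfs1), with the core proteins Uqcrc1 and Uqcrc2 and small accessory subunits. The 9 members had a median of -0.90 in old ANKO against old control, and the small subunits held the lowest values. Uqcr11 measured 63.8, 89.7, 30.5, 50.2 and 86.7 CPM in old controls against 25.6, 35.4, 23.1, 29.7 and 35.3 in old ANKO libraries. Old control 3 alone fell within the ANKO range for Uqcr11 (-1.11 ± 0.24, adjusted p = 0.00866). Uqcr10 ranged from 23.9 to 58.6 CPM in old controls against from 13.2 to 23.6 CPM in old ANKO libraries, with no overlap (-1.08 ± 0.24, adjusted p = 0.00901). Uqcrb, which binds ubiquinone, fell from 40.7 ± 11.5 (SD, n = 5) to 20.4 ± 5.16 CPM (-0.995 ± 0.20, adjusted p = 0.00466). The catalytic and core members fell less: Uqcrfs1 by 0.90, Cyc1 by 0.89, Uqcrc1 by 0.82 and Uqcrc2 by 0.78 on the log2 scale, a difference between members that was not tested. Uqcrh, the acidic hinge protein, had the smallest change of the complex (-0.50 ± 0.13, adjusted p = 0.0195). Uqcr10, Uqcr11, Uqcrb and Uqcrq were called in all 10 analyses that left out 1 old library. Without old control 2 the other 5 lost their calls, and without old control 5 so did Cyc1, Uqcrc1, Uqcrc2 and Uqcrh (adjusted p up to 0.0885).

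Among the complex IV members, 10 fell in old ANKO fat and 6 were not called. Cox8a, a small membrane subunit, had the lowest fold change and the smallest p of the 46 members. It measured 166, 174 and 239 CPM in young controls, 130, 186 and 156 in young ANKO, 147, 210, 105, 122 and 195 in old controls, against 68.8, 70.0, 66.0, 71.6 and 63.5 in old ANKO libraries. The old ANKO libraries lay close together and all below the lowest old control (-1.20 ± 0.18, adjusted p = 0.000754). Cox6a1, the widely expressed form of subunit 6a, fell from 129 ± 48.2 to 62.5 ± 3.97 CPM (-1.05 ± 0.21, adjusted p = 0.00563), without overlap. Cox5b, a zinc-binding subunit on the matrix side, measured 98.8, 131, 59.8, 74.9 and 116 CPM in old controls against 41.2, 61.5, 46.8, 51.4 and 54.9 in old ANKO libraries (-0.91 ± 0.18, adjusted p = 0.00548). Its groups overlapped because old ANKO 2 lay above old control 3. Cox4i1, Cox6b1, Cox6c, Cox7a2, Cox7b and Cox7c fell by 0.73 to 0.96. Ndufa4, first assigned to complex I and now counted as a subunit of complex IV, fell by 1.03 ± 0.26 (adjusted p = 0.0197), a call that was lost without old control 2, old control 5, old ANKO 1 or old ANKO 3 (adjusted p up to 0.0647). The other 9 kept their calls in all 10 such analyses. Cox5a, whose subunit sits beside that of Cox5b, had -0.53 ± 0.18 (adjusted p = 0.0745), and Cox6c2 had -1.09 ± 0.35 (adjusted p = 0.061) at no more than 3.26 CPM in any library.

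The F1 head of ATP synthase is formed by Atp5a1 and Atp5b, which carry the nucleotide sites, with Atp5c1, Atp5d and Atp5e in the central stalk. Atp5b measured 787, 1227, 480, 585 and 1047 CPM in old controls against 358, 487, 357, 377 and 412 in old ANKO libraries. Old ANKO 2 lay just above old control 3, and all other old ANKO libraries lay below the old controls (-1.05 ± 0.22, adjusted p = 0.00708). Atp5a1 (-0.77 ± 0.18), Atp5c1 (-0.77 ± 0.18) and Atp5d (-0.65 ± 0.16) also fell, and Atp5e had -0.59 ± 0.19 (adjusted p = 0.064). Of the peripheral stalk, Atp5h fell by a modest amount with little spread: 78.2, 82.8, 62.3, 68.8 and 84.5 CPM in old controls against 48.0, 55.8, 53.1, 53.6 and 55.8 in old ANKO libraries. These did not overlap (-0.50 ± 0.09, adjusted p = 0.00267, the smallest of the complex). Atp5f1, Atp5j and Atp5o, of the same stalk, fell by 0.67, 0.59 and 0.93 on the log2 scale. The small membrane subunits Atp5k (-0.99), Atp5l (-0.84) and Atp5j2 (-0.65) fell too, while Atp5mpl had -0.46 ± 0.21 (adjusted p = 0.184) and Atp5s -0.28 ± 0.17 (adjusted p = 0.33). Atp5d, Atp5f1, Atp5j, Atp5j2 and Atp5o lost their calls without old control 2 and without old control 5 (adjusted p up to 0.122), and the other 7 complex V calls held without either.

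**Figure D3:**
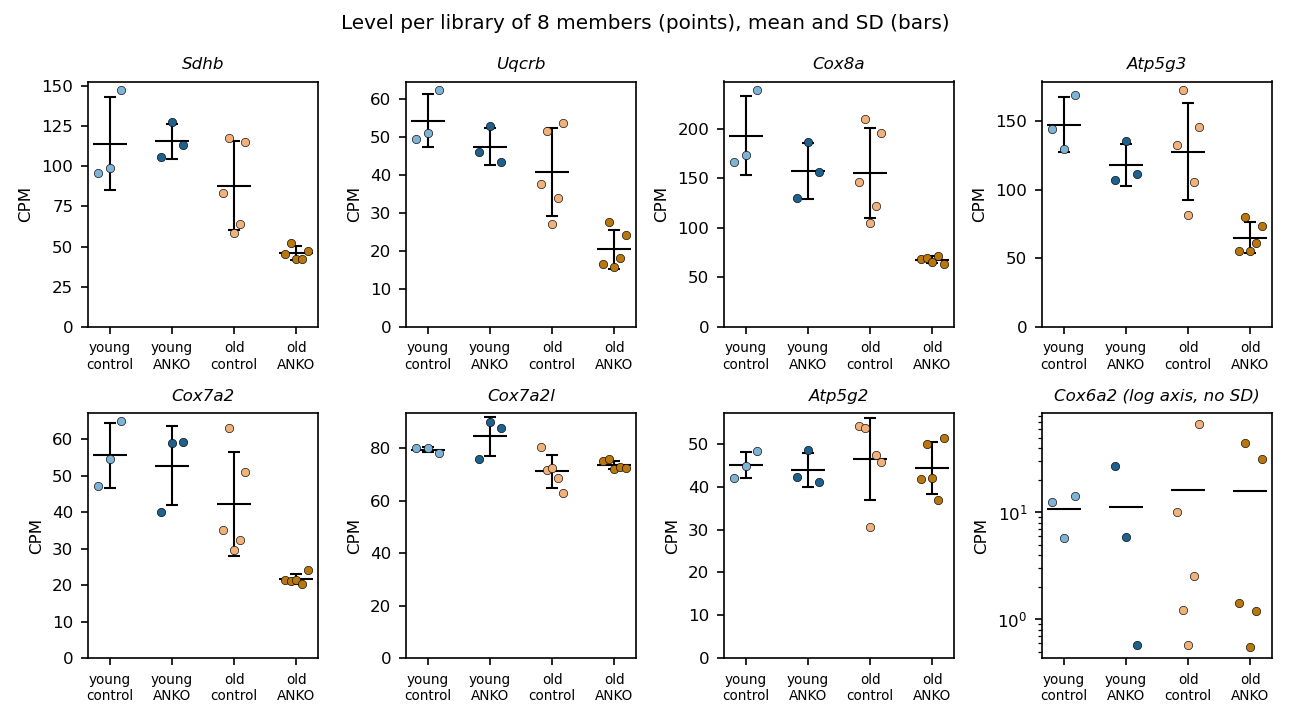
CPM of 8 members in each library (points) with the group mean and SD (bars; Cox6a2 on a log axis with the mean only). Sdhb, Cox8a, Atp5g3 and Cox7a2 show old ANKO libraries below all old controls, Uqcrb shows 1 overlap of the ranges, Cox7a2l and Atp5g2 show overlapping groups, and Cox6a2 spreads over 2 powers of 10 within groups.

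Across complexes, the CPM of old ANKO and old control libraries did not overlap for 13 members, all lower in ANKO, where this held for 5.82% of all genes tested. Those 13 were Sdha, Sdhb, Uqcr10, Cox4i1, Cox6a1, Cox6b1, Cox6c, Cox7a2, Cox7b, Cox8a, Atp5g3, Atp5h and Atp5k. In young fat 3 members did not overlap, Uqcr11, Cox6c and Atp5s, all lower in ANKO, where 9.42% of all genes did so. The members thus did so no more often than all genes, and these 3 do not set them apart. The young values of Uqcr11 were 72.9, 75.5 and 99.7 CPM in controls against 51.9, 66.8 and 52.8 in ANKO libraries (-0.53 ± 0.31, adjusted p = 0.848). Cox6c, a subunit that spans the membrane, measured 106, 108 and 141 CPM in young controls against 82.6, 99.1 and 82.3 in young ANKO libraries (-0.43 ± 0.21, adjusted p = 0.721).

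The count of 35 depended on which old libraries entered. It was 22 without old control 2 and 23 without old control 5, the libraries with the highest member levels among the old controls, and between 27 and 39 without any other old library. Old controls 2 and 5 also held the most reads of the series (30779298 and 29519927, against at most 23858605 in any other library). Whether depth bears on these calls was not tested. Over all genes the share called lower was 5.2% without old control 2 and 5.04% without old control 5, beside 8.04% with all libraries. Of the 35 calls, 32 were kept without old control 1, 27 without old ANKO 1, 29 without old ANKO 3, 30 without old ANKO 4 and 34 without old ANKO 5, and all 35 without old control 3, old control 4 or old ANKO 2. Without old controls 2 and 5 together, 10 members were lower (3.53% of all genes), with a median of -0.45. These were Sdha, Sdhb, Uqcrb, Cox5b, Cox6a1, Cox7a2, Cox8a, Atp5b, Atp5g3 and Atp5h. In each of these settings no member was higher.

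Several members are alternative forms or relatives of a subunit, and these did not move alike in old ANKO fat. Cox7a2l is related in sequence to Cox7a2, the widely expressed form of subunit 7a. The ratio of this pair is not read as an exchange of forms within complex IV. Cox7a2 measured 35.2, 63.0, 29.6, 32.4 and 50.9 CPM in old controls against 21.5, 21.1, 21.4, 20.4 and 24.2 in old ANKO libraries (-0.96 ± 0.19, adjusted p = 0.00504). Cox7a2l measured 80.6, 71.7, 72.5, 68.6 and 63.1 CPM in old controls against 75.1, 75.9, 72.3, 72.9 and 72.5 in old ANKO libraries. The old ANKO range of Cox7a2l lay inside that of the controls (0.05 ± 0.07, adjusted p = 0.731). Its ratio to Cox7a2, as log2(CPM + 0.5) differences, rose from 0.81 ± 0.52 (SD, n = 5) to 1.74 ± 0.11 without overlap (exact permutation test, two-sided p = 0.00794, Benjamini-Hochberg adjusted over 12 ratio tests 0.0238). The young difference was 0.17 (exact p = 0.4), where 3 against 3 libraries cannot go below p = 0.1.

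The c-ring of ATP synthase is made from a single mature protein encoded by Atp5g1, Atp5g2 and Atp5g3, which differ in their mitochondrial import sequences. Atp5g3 measured 132, 173, 81.6, 105 and 145 CPM in old controls against 55.4, 80.2, 55.5, 60.8 and 73.1 in old ANKO libraries, without overlap (-0.97 ± 0.18, adjusted p = 0.00292). Atp5g2 measured 54.2, 53.7, 30.6, 47.4 and 45.8 CPM in old controls against 41.7, 50.1, 42.0, 36.8 and 51.3 in old ANKO libraries, which overlapped throughout (-0.06 ± 0.14, adjusted p = 0.83). Its fold change was 0.08 when libraries were scaled by their totals, so its direction depended on the scaling. Atp5g1 ranged from 25.7 to 52.8 CPM in old controls against from 25.7 to 37.4 CPM in old ANKO libraries (-0.35 ± 0.18, adjusted p = 0.226). Relative to Atp5g3, both rose in old ANKO fat, Atp5g2 by 0.89 and Atp5g1 by 0.61 on the log2 scale (exact p = 0.00794 for each, adjusted 0.0238), with no overlap. In young fat the same ratios differed by 0.28 (exact p = 0.1, the smallest p possible) and 0.19 (exact p = 0.6).

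The tissue-restricted forms were low or uneven. Cox4i2, a form of subunit 4 known from lung, lay between 0.695 and 2.75 CPM in old libraries (0.35 ± 0.33, adjusted p = 0.559), while its partner Cox4i1 fell by 0.86 ± 0.18 (adjusted p = 0.00707). Their ratio differed by 0.98, with overlap (exact p = 0.0238, adjusted 0.0571). Cox6b2, a form known from testis, lay between 1.05 and 2.49 CPM in old libraries (0.08 ± 0.27, adjusted p = 0.899). Its ratio to Cox6b1 rose by 0.98 without overlap (exact p = 0.00794, adjusted 0.0238), at a level that leaves few reads behind each value. For the 4 ratios that passed the groups did not overlap, so leaving out any 1 old library could not make them overlap. Each ratio then kept the smallest p possible, and its adjusted p (at most 0.0476) is no further check. Without old controls 2 and 5 the 4 differences were between 0.56 and 0.73 and their adjusted p was 0.107, at 3 against 5 libraries. Without the 4 libraries rich in muscle RNA (described with Cox6a2) the differences were between 0.65 and 0.97 and the adjusted p 0.137. Groups that did not overlap with all old libraries could not overlap in either setting. With so few libraries even full separation cannot reach an adjusted p below 0.05, so neither setting can decide whether a ratio holds. The ratio test treats a pair of genes in 1 library as a unit. Library scaling then nearly cancels for well expressed pairs, but less so for Cox4i2 and Cox6b2, whose CPM are near the added 0.5. A ratio shows unequal change, not that either gene stayed level.

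**Figure D4:**
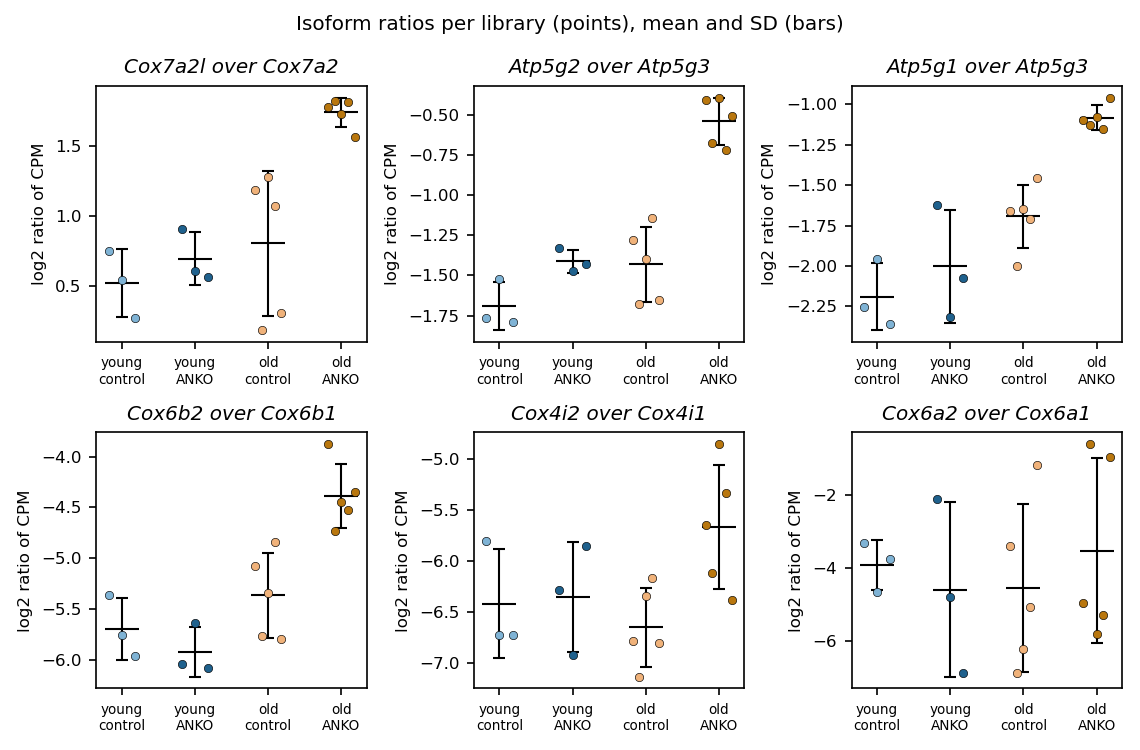
Log2 ratio of CPM between 6 pairs of alternative or related forms in each library (points) with group mean and SD (bars). For Cox7a2l over Cox7a2, Atp5g2 and Atp5g1 over Atp5g3, and Cox6b2 over Cox6b1, the 5 old ANKO points lie above all old control points.

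Cox6a2, the form of subunit 6a of heart and skeletal muscle, followed the muscle RNA of each library. It measured 12.5, 5.74 and 14.3 CPM in young controls, 27.3, 5.93 and 0.577 in young ANKO, 10.2, 1.22, 0.574, 2.56 and 66.7 in old controls, against 1.44, 44.6, 0.551, 1.19 and 31.3 in old ANKO libraries. The highest 4 values were in young ANKO 1, old control 5, old ANKO 2 and old ANKO 5, the same 4 libraries in which 16 skeletal muscle markers summed to more than 15000 CPM. The 16 include Cox6a2 itself, which adds at most 66.7 CPM to a sum. No skeletal muscle marker was called by edgeR in either ANKO comparison (0 of 16). Of all genes 0.316% were called in young fat, and 8.04% were lower and 2.99% higher in old fat. The sum of the markers ranged from 84.0 to 46270 CPM in old controls against from 237 to 25760 CPM in old ANKO libraries. With those 4 libraries left out, 6 members were lower in old ANKO fat, where 2.77% of all genes were, and the median over the members was -0.85. Cox7a1 and Cox8b, muscle and brown fat forms outside the rule, had -0.92 ± 0.55 and -1.80 ± 0.67 in old ANKO fat and were not called with all libraries (adjusted p = 0.326 and 0.102). Cox8b was called without the 4 muscle-rich libraries (-3.23, adjusted p = 0.0424), without old control 3 (-2.08, adjusted p = 0.0353), with a replicate block (-1.85, adjusted p = 0.00797) and by DESeq2 (-1.79, adjusted p = 0.0259).

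The proximal promoters of 34 members were available, from RefSeq on GRCm38.p6, each with 250 bases before and 50 after a start site. The table held no window for 12 members. A match to the NRF1 motif (GCGCA, any base, GCGC) was found in 10 of the 34 (29.4%), against 9.2% of the 13333 tested genes with a window. CCGGAAG, bound by GABPA and other ETS factors, was found in 12 (35.3%, against 16.6%), and either motif in 18 (52.9%, against 23.7%). CCAAT, bound by NF-Y, was found in 18 (52.9%, against 41.8%), and TCAAGGTCA, the ESRRA motif, in Atp5g3 and Sdhd (5.9%, against 0.3%). AAGATGGCG, the YY1 motif, was found in 2 (5.9%, against 2.8%), and TATAAA in Atp5l alone (2.9%, against 9.8%). Both strands were searched, and a match describes letters in the window, not a bound site. Of the 27 members with a window that fell in old ANKO fat, 9 had the NRF1 motif and 11 the ETS motif, and of the 7 not called, 1 had each.

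Shown here are the promoter of Cox8a, the member with the lowest fold change, and those of the 3 c-subunit genes, whose ratios shifted. All 4 genes lie on the minus strand, and the sequences read 5′ to 3′ along the gene, with motif matches in capitals. For Cox8a (chr19:7217617-7217866) the capitals mark a reverse CCAAT and the first bases of a reverse CCGGAAG that crosses the start site. For Atp5g3 (chr2:73911327-73911576) they mark CCAAT and a reverse TCAAGGTCA, and a reverse NRF1 match lies past the end shown. For Atp5g1 (chr11:96075671-96075881) they mark 5 CCAAT matches, 1 of them reverse and overlapping its neighbour. For Atp5g2 (chr15:102671070-102671099), 30 bases around its NRF1 match are shown, which reads the same on both strands.
Cox8a: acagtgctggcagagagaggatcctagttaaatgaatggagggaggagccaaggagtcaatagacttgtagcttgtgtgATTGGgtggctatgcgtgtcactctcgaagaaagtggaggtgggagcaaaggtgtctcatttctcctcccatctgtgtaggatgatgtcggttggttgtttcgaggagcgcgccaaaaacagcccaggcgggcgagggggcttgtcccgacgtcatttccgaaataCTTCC
Atp5g3: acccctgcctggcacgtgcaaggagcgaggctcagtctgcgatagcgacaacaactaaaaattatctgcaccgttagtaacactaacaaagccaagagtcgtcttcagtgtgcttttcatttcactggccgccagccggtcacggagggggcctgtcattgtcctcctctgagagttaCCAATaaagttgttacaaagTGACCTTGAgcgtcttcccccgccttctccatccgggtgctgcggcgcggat
Atp5g1: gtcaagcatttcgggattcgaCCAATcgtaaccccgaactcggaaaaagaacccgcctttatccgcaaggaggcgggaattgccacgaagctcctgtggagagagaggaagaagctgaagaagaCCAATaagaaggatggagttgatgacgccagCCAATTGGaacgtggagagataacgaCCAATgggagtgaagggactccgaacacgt
Atp5g2: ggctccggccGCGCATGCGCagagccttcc

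Levels can be compared between members per kilobase of annotated exon. In old controls Cox8a was highest at 252 ± 73.7 CPM per kilobase (SD, n = 5), followed by Atp5b (195 ± 73.7), Atp5a1 (189 ± 54.9) and Cox6a1 (184 ± 68.7), and those last 3 differed by less than their spread. The lowest were Cox4i2 (1.56 ± 0.258), Cox6b2 (1.73 ± 0.518) and Atp5s (2.46 ± 0.513). By this measure Cox7a2l ranked 19th of 46 in old controls and 7th in old ANKO fat, and Atp5g2 moved from rank 33 to 19. Exon lengths are of all annotated isoforms together, which lowers the value of genes with a long total such as Atp5l (6443 bases) and Atp5g1 (4912 bases).

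The effects at both ages were compared directly in the same model. The difference, old effect minus young effect, was below 0 for 44 of the 46 members, where 52.1% of all genes were. The median was -0.72 over the members and -0.02 over all genes. In edgeR 0 members passed, where 0.00472% of all genes did. An unadjusted p below 0.05 was found for 24 members and for 2037 of all 21206 genes. DESeq2 called 0 members, while it called 244 of all genes lower and 30 higher. The lowest value was that of Uqcr10 (-1.10 ± 0.38, adjusted p = 0.382), and the smallest adjusted p was 0.295 for Sdhd (-0.99 ± 0.31). A larger loss in old than in young ANKO fat was therefore not shown for any single member. The same limit held for Cox8a (-0.90 ± 0.29, adjusted p = 0.322).

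Between ages, the members were lower in old ANKO fat than in young ANKO fat. Of the 46, 31 fell and none rose, where 4.55% of all genes were lower and 1.79% higher: 4 of complex II, 7 of complex III, 10 of complex IV and 10 of complex V. The CPM of 40 members did not overlap between these groups, where 11.9% of all genes were lower without overlap. Sdhb had the lowest fold change: 106, 127 and 113 CPM in young ANKO against 42.2 to 52.2 CPM in old ANKO libraries (-1.33 ± 0.21, adjusted p = 0.00184). Cox7a2 (-1.28 ± 0.21), Cox8a (-1.21 ± 0.20), Uqcrb (-1.21 ± 0.22) and Cox5b (-1.12 ± 0.21) also fell. Without young ANKO 2, the young ANKO library with the highest member levels, those 5 were the only members called of the 31, and without young ANKO 3 the count was 18. The share of all genes called lower was 1.23% and 2.56% in those settings, beside 4.55%. Cox5a, not called against old controls, fell against young ANKO (-1.05 ± 0.20, adjusted p = 0.00663), and Cox6b2 had the highest value (0.66 ± 0.32, adjusted p = 0.265). With the 4 muscle-rich libraries left out, 13 members were lower, where 2.7% of all genes were.

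In fat with intact Nampt, edgeR called 0 of the 46 members between old and young controls, where 0.49% of all genes were called. An unadjusted p below 0.05 was found for 2 members and for 2769 of all 21206 genes. DESeq2 called 0 members, while it called 163 of all genes lower and 653 higher. The median was -0.18, and 41 members were below 0, where 45.5% of all genes were. No member was free of overlap, where 2.93% of all genes were lower without overlap. Cox6c had the smallest p (-0.43 ± 0.18, adjusted p = 0.322), Cox4i2 the lowest fold change (-0.55 ± 0.38) and Cox6a2 the highest (0.59 ± 1.61). Each of the 4 groups serves in 2 of these comparisons, so values that share a group are not independent.

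Other lists of mitochondrial genes also held members that fell in old ANKO fat and none that rose, beside a median of 0.01 over all genes. Of all genes 8.04% were lower and 2.99% higher in this comparison. Of 36 nuclear subunits of complex I, 32 fell (median -0.73), with the smallest p for Ndufv3 (-1.18 ± 0.18, adjusted p = 0.001). Among the 13 subunits encoded in mitochondrial DNA, 11 fell (median -0.93), mt-Cytb of complex III by 1.13 ± 0.18 (adjusted p = 0.00136). The summed CPM of mt-Co1, mt-Co2 and mt-Co3 stood at 5.97 to 10.3 times that of the nuclear complex IV members in old controls and 6.97 to 9.52 times in old ANKO libraries, so the groups overlapped. Genes of the citric acid cycle and of pyruvate use (Pdha1, Pdhb, Dlat and Pcx) fell in 16 of 18 cases (median -0.94). The smallest p was that of Suclg2, a subunit of succinate-CoA ligase (-0.71 ± 0.10, adjusted p = 0.000644). Of 31 assembly factors of complexes II to V, 7 fell (median -0.32), among them Atpaf2, which assembles the F1 head (-1.11 ± 0.23, adjusted p = 0.00638). In a list of import, cristae, porin (Vdac) and carrier (Slc25) genes, 10 of 20 fell (median -0.46, Timm23 -0.77 ± 0.16). Small mitochondrial ribosomal proteins fell in 12 of 21 cases (median -0.51, Mrpl12 -0.86 ± 0.17). Without the 4 muscle-rich libraries Atpaf2 (-1.12) and Mrpl12 (-0.90) had similar fold changes and were not called (adjusted p = 0.0717 and 0.0527). In young ANKO fat edgeR called 0 genes of these lists, where 0.316% of all genes were called. DESeq2 called Suclg2 lower there (-0.595, adjusted p = 0.00574), where it called 0.887% of all genes lower.

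Of 17 regulators of mitochondrial biogenesis, 4 fell in old ANKO fat, where 8.04% of all genes fell, and the median was -0.06. Pparg, the nuclear receptor that directs adipocyte differentiation, fell by 2.28 ± 0.25 (adjusted p = 9.61e-05) and is also counted among the adipocyte markers. Ppargc1a, a coactivator of mitochondrial genes, measured 13.5, 12.0, 6.80, 8.66 and 14.9 CPM in old controls against 3.02, 8.09, 2.42, 3.53 and 8.29 in old ANKO libraries (-1.15 ± 0.34, adjusted p = 0.0423). Its higher old ANKO values were in libraries 2 and 5, those rich in muscle RNA. Sirt3, a mitochondrial NAD-dependent deacetylase (-0.57 ± 0.16, adjusted p = 0.0365), and Tfb2m, a mitochondrial transcription factor (-0.48 ± 0.14, adjusted p = 0.0392), completed the 4, named after their values were seen. Those last 3 calls were lost without old control 1, 2 or 5 (adjusted p between 0.0804 and 0.133), and each was also lost without at least 2 of the 5 old ANKO libraries. All 3 were lost too with library totals, without a filter and with only the compared groups fitted (adjusted p between 0.0508 and 0.116). Nrf1 (0.17 ± 0.12), Gabpa (-0.01 ± 0.09), Yy1 (-0.02 ± 0.08), Esrra (-0.06 ± 0.13) and Tfam (0.09 ± 0.13), whose products act on such promoters or on mitochondrial DNA, were not called.

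Adipocyte markers fell in the same comparison as the members. Each of the 25 adipocyte markers was lower in old ANKO samples (median -2.57), where 8.04% of all genes were. Their summed CPM was 15470 to 44230 in old controls and 2878 to 6570 in old ANKO libraries. In young fat, where no member was called, 2 of the 25 fell (median -0.81), beside 0.151% of all genes. The sum in young fat was 29430 to 43790 CPM for controls and 13510 to 19590 CPM for ANKO libraries. The summed CPM of the 46 members, divided by that of the adipocyte markers, lay between 0.131 and 0.168 in young controls, 0.285 and 0.346 in young ANKO, 0.135 and 0.232 in old controls but 0.483 and 0.853 in old ANKO libraries. Thus the ratio was higher in each ANKO group than in any control library. Within the old controls, libraries 3 and 4 had the lowest adipocyte sums (15470 and 16330 CPM) and the lowest member levels, and libraries 2 and 5 had the highest of both. Of 14 macrophage markers 7 rose in old ANKO fat (median 0.67), and of 10 fibroblast and progenitor markers 4 rose (median 0.57). Of all genes 2.99% rose. Of 10 endothelial markers 2 fell and of 11 brown and beige adipocyte markers 3 fell, beside 8.04% of all genes. None of 12 mammary epithelium and 9 keratinocyte markers was called. The mammary epithelium markers summed to 8605 CPM in old control 2, against 902 to 1676 CPM in the other old controls. Their sum was 1089 to 2797 CPM in old ANKO libraries. The part of these cell types in the change of the members was not tested.

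**Figure D5:**
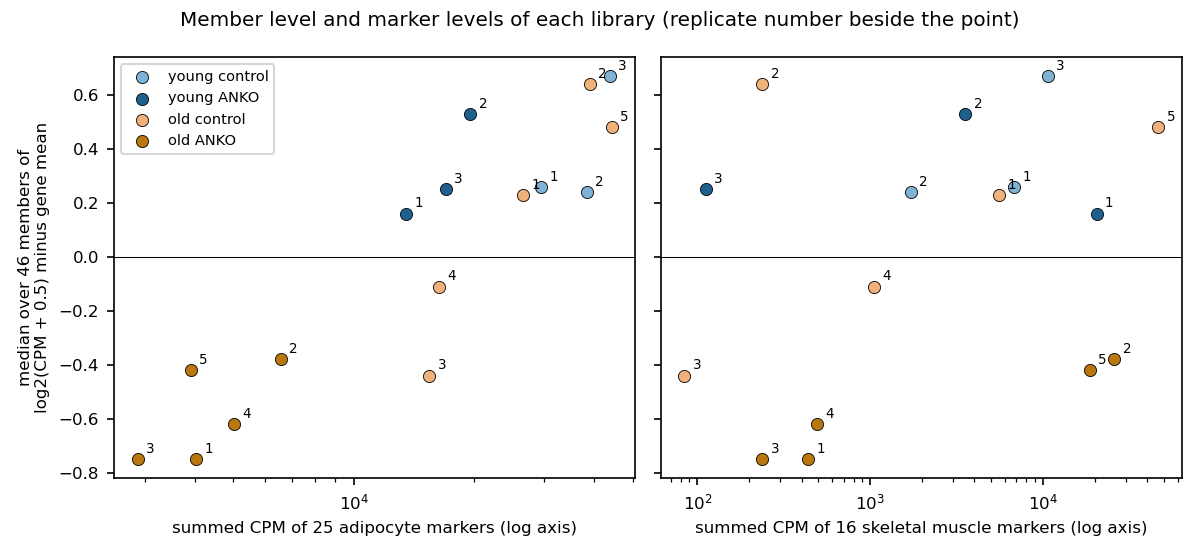
Median member level of each library (vertical axis, log2 units from the gene mean) against the summed CPM of 25 adipocyte markers (left, log axis) and of 16 skeletal muscle markers (right, log axis). The 5 old ANKO libraries sit at the lowest adipocyte sums, at most 6570 CPM, and the muscle sum spans 84.0 to 46270 CPM with high and low libraries in most groups.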

How the data were processed

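Per the labels' protocols, ribosomal RNA was removed from total RNA of subcutaneous white fat (Ribo-Zero Gold) before the 16 libraries were sequenced. The authors deposited raw, unnormalized read counts per gene symbol. Tools named in the submitters' processing notes are STAR (2.0.4b), Subread and featureCounts (1.45), with build GRCm38. No label or file header gives the annotation release, the strand setting or the handling of reads with several matches, and counts of overlapping genes and of near-identical copies are uncertain. Of 40757 lines, 322 repeated another and 113 gave way to a line of the same symbol with more reads. A further 24 symbols had become dates in a spreadsheet (0.126% of reads) and were kept as such.

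CPM were computed with edgeR (4.0.16, R 4.3.3) on TMM effective library sizes after filterByExpr by group, which kept 21206 genes. Fold changes came from edgeR's quasi-likelihood F-test in 1 model of the 4 groups over 16 libraries, with Benjamini-Hochberg adjustment over all genes, a threshold of 0.05 and SE taken as the size over the square root of F. Totals between 19277403 and 30779298 reads set the counting precision. The test was tried on simulated counts first. Ratios of alternative or related forms used log2(CPM + 0.5) and two-sided exact permutation tests, adjusted over 12 ratios. This test was chosen after the fold changes were known.

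The members, the 16 gene lists (265 genes, 8 in more than 1 list) and the ratio pairs were chosen with earlier results of these data known. Named members were the 4 of complex II, the 3 smallest p of complexes III, IV and V in old ANKO against old control, the highest and lowest fold change of each comparison, the 4 largest p among members not called, and the paired forms. From each other list the smallest p was named. Alternatives were RLE factors, library totals, DESeq2 (1.42.0), no filter, a filter of 1 CPM in 3 libraries, only the compared groups, a replicate block, each library left out, and old controls 2 and 5 left out. Leaving out the 4 libraries with more than 15000 CPM of skeletal muscle markers was added after the data were seen. Positions came from GENCODE M21 on GRCm38 and promoters from RefSeq on GRCm38.p6. No 2 libraries of the same group were alike within counting noise, and pairs from different groups were not compared in this way.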

Additional observations from a re-analysis of the deposited data

Results flagged for a closer look

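In groups of 5 libraries, a value was singled out where its gap to the nearest library was large against the group's range (Dixon's test at 95%), which chance does in about 1 of 20 groups, and 5 values were singled out among 134 groups tested. Cox6a2 reached 66.7 CPM in old control 5, against 0.574 to 10.2 CPM in the other old controls. In the same library the skeletal muscle markers summed to 46270 CPM, against 84.0 to 5542 CPM in the other 4. Cox7a2 measured 24.2 CPM in old ANKO 5, against 20.4 to 21.5 CPM in the other old ANKO libraries, a small gap in a narrow group. Atpaf2, the F1 assembly factor, measured 22.7 CPM in old ANKO 2, against 16.2 to 17.7 CPM in the others. Mrpl12, a mitochondrial ribosomal protein gene, measured 36.7 CPM in old control 2, against 18.5 to 22.3 CPM in the others.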

How the results depend on the processing

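In old ANKO against old control the number of members lower was 35 with RLE factors and with the stricter filter, 34 with library totals and without a filter, and 37 with DESeq2. It was 18 when only the compared groups were fitted, 22 to 39 when 1 library was left out (22 without old control 2, 23 without old control 5), 10 without old controls 2 and 5, and 6 without the 4 muscle-rich libraries. The share of all genes called lower was 8.04% with all libraries, 4.42% for only the compared groups, 3.53% without old controls 2 and 5 and 2.77% without the muscle-rich libraries. In old ANKO against young ANKO the number of members was 31 or 32 under the scalings and filters, 36 with DESeq2, 37 when only the compared groups were fitted, 5 to 30 when 1 library was left out (5 without young ANKO 2, 18 without young ANKO 3) and 13 without the muscle-rich libraries. The cause of these drops was not tested, beyond the fewer samples that enter. Old against young control gave 0 except without old controls 2 and 5, where 2 members were lower. Young ANKO against control and the difference of the effects gave 0 members in every alternative. Library totals moved the median of all genes to 0.14 in the old ANKO effect and to 0.17 in old against young ANKO, and the split of all called genes in the old ANKO effect from 1704 lower and 633 higher to 1199 and 926. No member's called direction reversed in any alternative.

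Replicate numbers are shared by the groups, but same-numbered deviations correlated between -0.04 and 0.05 in young fat and between -0.04 and 0.44 in old fat, so the numbers were not taken as pairs. With the replicate block 35 members were lower in old ANKO against old control, 31 in old against young ANKO and 0 in the other comparisons. Depth limits mainly Cox4i2, Cox6b2 and Cox6c2, which lay below 4 CPM.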
